A study of Mus musculus with 4 samples.

Results

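Arginine metabolism was followed through 4 genes, Slc7a2, Nos2, Ass1 and Odc1, in the macrophages, monocytes, neutrophils and dendritic cells of subcutaneous KPC tumors. The genes were given by name, and the cells were chosen by clustering without these genes and by marker genes of each class. All 4 of 4 were among the 33696 features of the matrices, and the 4 classes held 37219 of the 48848 cells kept. The measurements are counts of unique molecular identifiers (UMIs, tags that count each captured RNA molecule once) per gene and cell, from a kit that reads the 5′ end of the transcript.

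KPC cells are a mouse pancreatic cancer line from a genetically driven tumor, and they were grown under the skin of C57BL/6 male mice aged 8 to 10 weeks. One group of mice was left untreated, and one received the STING agonist ADU-S100 once into the tumor at 2 µg. Another received an agonistic antibody to the lymphotoxin-β receptor, anti-LTβR, into the peritoneum at 100 µg in repeated doses, and the last group received both, the combination. Live CD45+ leukocytes were sorted on day 14 from 10 tumors pooled per group, so each group is 1 library with no replicate and the mice in it cannot be told apart. Doses, ages, pooling and day are from the study's methods. Where 4 values stand together below, they are in the order untreated, ADU-S100, anti-LTβR and combination.

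Arginine enters these cells through cationic amino acid transporters, of which Slc7a2 (CAT2) is the inducible one of macrophages. Inside the cell, the inducible nitric oxide synthase Nos2 turns arginine into nitric oxide and citrulline. Ass1 carries out the first step that rebuilds arginine from citrulline, and Odc1 turns ornithine, another product of arginine, into putrescine, the start of polyamine synthesis. Nitric oxide made by macrophages acts against microbes, and it is known to restrain T cells nearby.

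The classes were checked against their markers. Summed neutrophil markers lay between 48652 and 76002 CPM (counts per 1000000 UMIs) in the neutrophil class and at or under 959 CPM in the other classes. Summed macrophage markers lay between 12450 and 14370 CPM in macrophages and between 2872 and 4810 CPM in monocytes. Summed monocyte markers in monocytes were 3616, 2766, 3256 and 3075 CPM, below the macrophage markers of the same class in 3 of 4 libraries, and at most 391 CPM in macrophages, so the monocyte class is not cleanly separated from macrophages. Kept cells numbered 7516, 13441, 13225 and 14666, with median depths of 4616, 3109, 3733 and 2200 UMIs, the lowest in the combination library. Neutrophils were 6.00, 36.3, 7.03 and 8.56% of leukocytes, which sets how much of a gene's total they could hold. Pairs of libraries shared between 34 and 83 cell barcodes, at most 0.539% of the smaller library.

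One feature of RNA content ran through the classes. Macrophage cluster 8, monocyte cluster 7 and dendritic cluster 30 had under 1% of their UMIs in ribosomal protein genes (0.943, 0.837 and 0.632%), with Malat1, a nuclear RNA, at 27376, 24861 and 21279 CPM. The remaining macrophage and monocyte clusters had between 6.53 and 16.6% ribosomal protein UMIs and Malat1 at or under 11319 CPM. Without the 3 clusters, 13 of 60 log2 ratios moved beyond their counting interval, furthest that of Slc7a2 in monocytes with ADU-S100 against untreated, from 0.86 to 0.52. Some of the others are given beside their results.

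**Figure D1:**
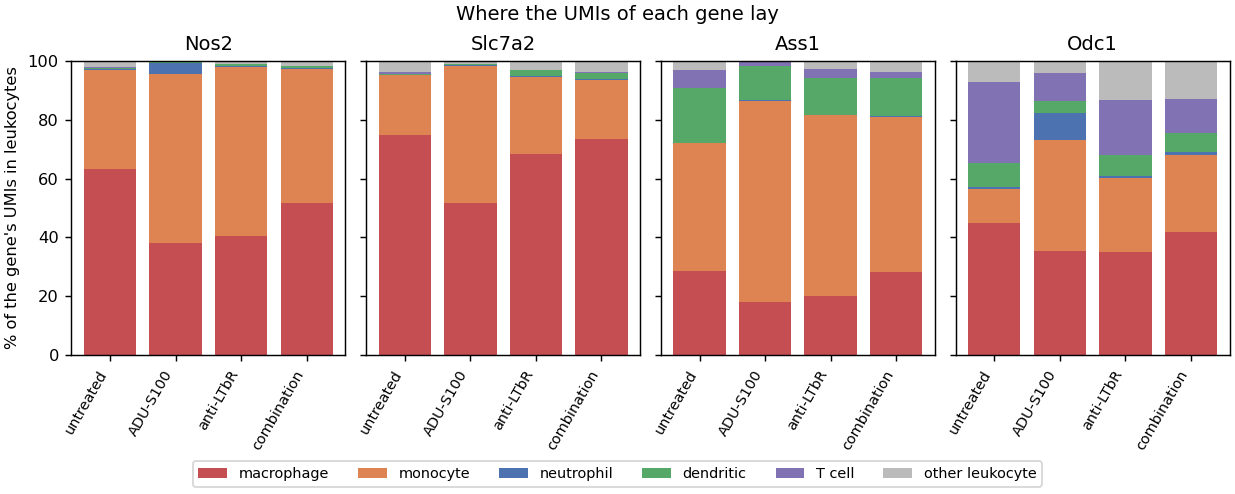
Share of each gene's UMIs (percent of all its UMIs in leukocytes, vertical axis) that lay in each cell class, 1 stacked bar per library. Nos2 and Slc7a2 were almost wholly in macrophages and monocytes, dendritic cells held up to 18.4% of Ass1 UMIs, and T cells held up to 27.4% of Odc1 UMIs.

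The first question was which cells carry each gene. Over all leukocytes, the 4 myeloid classes held 97.7, 99.6, 99.1 and 98.4% of the Nos2 UMIs. Macrophages alone held 63.2, 38.2, 40.5 and 51.6% and monocytes 33.8, 57.5, 57.5 and 45.7%. Slc7a2 lay mostly in macrophages, with 75.0, 51.5, 68.3 and 73.5% there and 20.2, 46.6, 26.4 and 20.2% in monocytes. The largest share of Ass1 lay in monocytes (43.9, 68.3, 61.5 and 53.0%), and dendritic cells held 11.3 to 18.4%. Odc1 was the least myeloid of the 4, since the 4 classes held only 65.4, 86.3, 67.9 and 75.5% of it.

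Pooled over all leukocytes, Nos2 was 102.5, 245.9, 230.5 and 174.7 CPM, lowest without treatment. Its log2 ratio to the untreated library was 1.26 (95% interval 1.22 to 1.31) with ADU-S100, the largest of the 4 genes in that comparison. Slc7a2 was 147.4, 187.9, 205.5 and 235.2 CPM, highest in the combination, where its log2 ratio was 0.67 (0.63 to 0.72). Odc1 differed little, at 208.5, 233.6, 213.7 and 215.2 CPM. These figures mix the number of cells of a class with the level per cell, so the classes are described separately below.

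**Figure D2:**
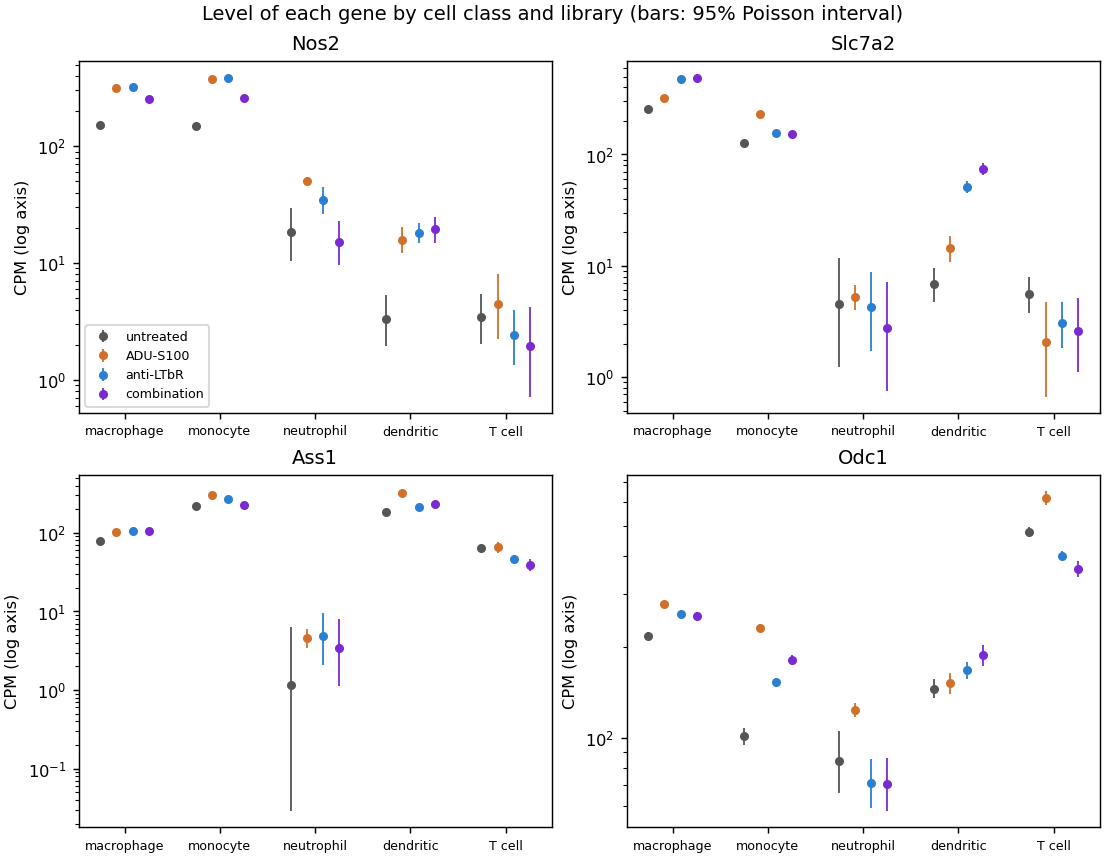
Level of each gene in CPM (log axis) by cell class, 1 point per library, with 95% Poisson intervals that cover counting error only. Nos2 was between 148 and 382 CPM in macrophages and monocytes and at or under 50.2 CPM in the other classes plotted, and Slc7a2 was highest in macrophages at 257 to 485 CPM.

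Intervals here are exact Poisson for a CPM, exact Clopper-Pearson for a share of cells and exact binomial for a ratio of CPM values. They cover counting error only and say nothing of the spread between mice or libraries, so a difference was called past 2-fold only by its size, among genes with at least 200 UMIs over both libraries. No test between groups could be made. Levels of different genes can be set side by side because a UMI counts a molecule whatever the length of its transcript.

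Slc7a2, the transporter, was a macrophage gene first. Its level in macrophages was 257, 324, 478 and 485 CPM, lowest without treatment and highest with anti-LTβR alone or in the combination. Against untreated, ADU-S100 gave a log2 ratio of 0.33 (0.28 to 0.38). Anti-LTβR gave 0.89 (0.84 to 0.95), near the 0.91 (0.86 to 0.97) of the combined treatment. In monocytes the order was different, with 127, 231, 156 and 153 CPM, so ADU-S100 gave the highest value, at a log2 ratio of 0.86 (0.78 to 0.95). Anti-LTβR and the combination were nearer to untreated there, at 0.30 (0.21 to 0.39) and 0.27 (0.17 to 0.37). These 3 monocyte values depend on the clusters, and with finer clusters they were 1.96, 0.88 and 1.03, with ADU-S100 still highest and both it and the combination past 2-fold. The finer clusters left groups of 2935, 2581 and 1398 cells unnamed, so those values describe a different set of cells. The groups of 2935 and 2581 share leading genes with monocyte clusters 4 (Ly6i, Ccr2) and 2 (Clec5a, Ecm1). The group of 1398 shares them with both cluster 5 (Adgre4, Arhgef37) and cluster 7 (Plcb1, Ldlrad3). For ADU-S100 the value was 1.05 with scaling by the median ratio and 1.28 after thinning.

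Each cell was also thinned to 1000 UMIs at random, so that libraries of different depth could be compared cell by cell. The share of macrophages with a Slc7a2 UMI was then 16.3, 18.8, 23.4 and 24.7%, against 38.3, 36.9, 42.2 and 41.7% with all UMIs. In monocytes the thinned share was 6.90, 12.3, 8.98 and 7.985%, and in T cells, which should lack the gene, it was at most 0.430%. Expression was uneven between cells, as the top 10% of macrophages by Slc7a2 UMIs held 68.1, 71.9, 66.7 and 65.5% of the UMIs of the class.

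The clusters of macrophages and monocytes differed widely in Slc7a2. It was 549, 527, 758 and 917 CPM in macrophage cluster 8 and 480, 538, 888 and 751 CPM in macrophage cluster 9, whose leading genes include Adm, Gpnmb, Gdf15, Mmp12 and Hmox1, so the order of these clusters differed between libraries. Summed over libraries it was 321 CPM in macrophage cluster 1 (Apoe, C1qa, C1qc), 535 CPM in monocyte cluster 7 and 240 CPM in monocyte cluster 2 (Il6, Clec5a, Lif, Thbd). The lowest levels among the monocyte clusters were 21.5 CPM in monocyte cluster 5 (Ace, Adgre4, Vcan) and 85.3 CPM in monocyte cluster 4 (Ly6i, Ccr2, Cxcl9). Clusters 8 and 7 were each named on only 3 markers, with 0 markers of their class among their top 10 genes. The finer clusters left a group of 1996 cells unnamed that shares leading genes with cluster 8 (Gm13067, Zdhhc14).

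The macrophage difference with anti-LTβR was also present inside the clusters. Of 6 macrophage clusters, 5 were higher with anti-LTβR and 5 with the combination than untreated, with intervals that left out 0, and the interval of the remaining one, cluster 16, held 0. Cluster 15, led by Cbr2, Cd163 and Folr2, had the widest range as a fold, at 47.9, 20.1, 140 and 219 CPM. With ADU-S100 the clusters were mixed, 3 higher and 2 lower, between -1.22 and 0.50 on the log2 scale. Monocyte cluster 2, by contrast, had 290, 220, 253 and 253 CPM, lower in each treated library. Monocyte cluster 7, the one with few ribosomal protein UMIs, had 311, 801, 328 and 340 CPM of Slc7a2. Without it the monocyte log2 ratio for ADU-S100 was 0.52, and the macrophage log2 ratio for anti-LTβR without cluster 8 was 1.07.

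Nos2, the inducible nitric oxide synthase, was higher with each treatment in both classes. Macrophages had 151, 314, 318 and 253 CPM and monocytes 148, 372, 382 and 256 CPM, so the single agents gave more than the combination. Relative to the untreated library, macrophages gave log2 ratios of 1.06 (0.99 to 1.12), 1.08 (1.01 to 1.14) and 0.75 (0.68 to 0.82), and monocytes 1.33 (1.25 to 1.41), 1.37 (1.29 to 1.45) and 0.79 (0.71 to 0.88). When each cell was named on its own by markers, without clusters, the macrophage values were 0.88 and 0.93 for the single agents, under 2-fold. With finer clusters the combination was past 2-fold as well, at 1.12 in macrophages and 1.21 in monocytes. Thinned shares of cells with a Nos2 UMI were 8.64, 16.85, 16.5 and 13.7% of macrophages and 8.20, 18.1, 16.8 and 11.01% of monocytes, against at most 0.772% of T cells.

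The direction was the same inside the clusters with enough UMIs to measure. Nos2 was higher in 5 of 5 macrophage clusters measured with ADU-S100, in 6 of 6 with anti-LTβR and in 6 of 6 with the combination, and in 4 of 4 monocyte clusters with each. The cluster not measured with ADU-S100, cluster 15, had 12.2 CPM untreated and 9.26 CPM with ADU-S100. Summed neutrophil markers, which also differed between libraries, were 273, 959, 358 and 387 CPM in monocytes and 89.9, 323, 147 and 144 CPM in macrophages. Nos2 in the neutrophil class itself was at most 50.2 CPM, and the part of neutrophil RNA in the Nos2 differences was not tested.

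Summed over macrophages and over monocytes, the combination had less Nos2 than either agonist alone. Its log2 ratio to ADU-S100 was -0.31 (-0.37 to -0.25) in macrophages and -0.54 (-0.59 to -0.48) in monocytes. To anti-LTβR alone it was -0.33 (-0.39 to -0.27) and -0.57 (-0.63 to -0.52). All of these were under 2-fold. With other settings the macrophage values ran from -0.44 to -0.09 against ADU-S100 and from -0.47 to -0.19 against anti-LTβR. Those of monocytes ran from -0.83 to -0.42 and from -0.80 to -0.33. The smallest macrophage differences were with finer clusters, so their size depends on how the cells were named. The direction against ADU-S100 was the opposite in 3 of 6 macrophage clusters, with 792 against 689 CPM in cluster 9, 36.0 against 9.26 CPM in cluster 15 and 190 against 155 CPM in cluster 16, the last with overlapping intervals. It was also the opposite in 1 of 4 monocyte clusters, cluster 2, with 658 against 461 CPM.

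Among macrophage and monocyte clusters, Nos2 was high in cluster 9, at 441, 689, 904 and 792 CPM, in cluster 2, at 400, 461, 739 and 658 CPM, and in cluster 7, at 291, 774, 722 and 363 CPM. Cluster 8, the other one with few ribosomal protein UMIs, had 243, 407, 393 and 301 CPM. Macrophage cluster 15 had only 27.0 CPM summed over libraries, and cycling macrophages in cluster 17 (Birc5, Ccna2) had 86.0 CPM. Without clusters 7 and 8 the Nos2 log2 ratios in macrophages were 1.15, 1.18 and 0.84 and in monocytes 1.23, 1.37 and 0.81, close to those with all clusters.

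The share of cells in the high clusters differed between libraries. Cluster 9 was 9.70, 25.7, 19.9 and 16.0% of macrophages and held 31.7, 60.2, 58.8 and 49.1% of their Nos2 UMIs. Cluster 2 was 20.1, 43.0, 33.1 and 20.4% of monocytes and held 71.3, 72.1, 79.5 and 72.1% of theirs. The top 10% of macrophages by Nos2 UMIs held 89.05, 73.35, 77.4 and 83.8% of the UMIs of the class, and the top 10% of monocytes held 93.4, 73.7, 78.9 and 92.5%. Nos2 thus sat mostly in a small part of each class. Cluster 9 was a larger part of macrophages in each treated library than untreated. Cluster 2 was a larger part of monocytes with either single agent and nearly the same part with the combination. The top 10% shares use all UMIs of each cell, so depth enters into them.

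**Figure D3:**
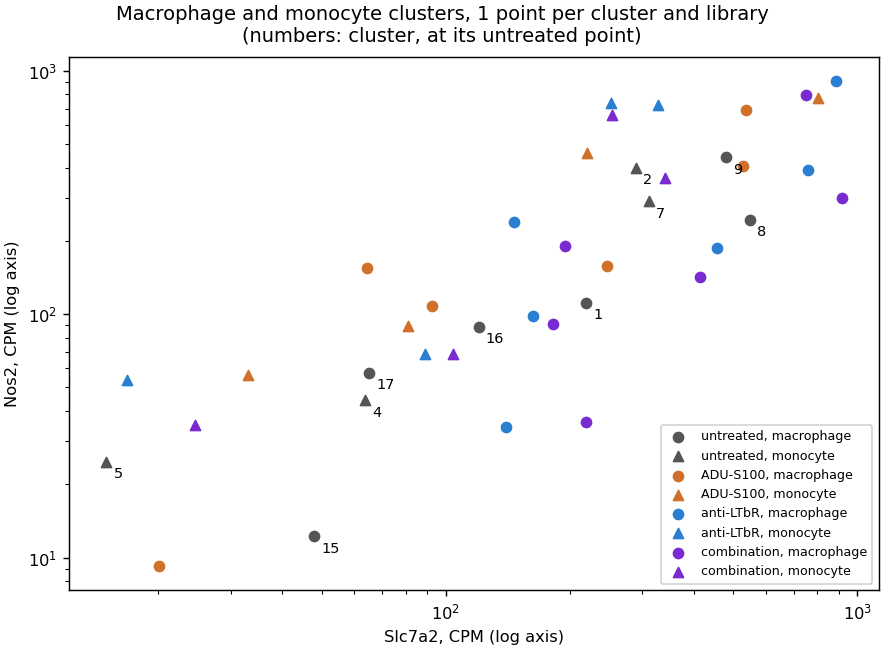
Level of Nos2 (vertical axis) against Slc7a2 (horizontal axis), both in CPM on log axes, 1 point per cluster and library in macrophages (circles) and monocytes (triangles). Cluster 9 was high in both at once, with 441 to 904 CPM of Nos2 and 480 to 888 CPM of Slc7a2, and monocyte cluster 5 was low in both.

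Ass1 and Odc1 stand on the sides of arginine that rebuild it and that use its products. Ass1 was a monocyte and dendritic gene, with 222, 306, 273 and 226 CPM in monocytes, 186, 322, 216 and 236 CPM in dendritic cells and 78.7, 103, 106 and 105 CPM in macrophages. Where Ass1 passed the minimum of 200 UMIs, its largest log2 ratio to untreated was 0.79 (0.67 to 0.91) in dendritic cells with ADU-S100, followed by 0.46 (0.40 to 0.53) in monocytes with ADU-S100. In monocytes with the combination it was 0.02, with an interval that held 0 (-0.05 to 0.10). It was -0.16 without clusters and 0.32 with macrophages and monocytes merged. In neutrophils it had between 1 and 53 UMIs, at most 1.11 UMIs per 100 cells, fewer than in T cells (27.0, 29.2, 15.7 and 8.01). It was 348, 331, 429 and 315 CPM in monocyte cluster 2 and 266, 359, 299 and 370 CPM in the mature dendritic cells of cluster 21 (Ccr7, Fscn1, Ccl22). With ADU-S100 the cDC2 of cluster 13, at 419.5 CPM, were above both.

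Odc1 differed most in monocytes, at 102, 232, 153 and 181 CPM. Their log2 ratios were 1.19 (1.10 to 1.29), 0.59 (0.49 to 0.70) and 0.83 (0.73 to 0.94), and all 4 monocyte clusters were higher under each treatment. Under ADU-S100 the monocyte clusters ranged from 0.97 to 1.65. With macrophages and monocytes merged the log2 ratios were 0.51, 0.18 and 0.31. Macrophages had more Odc1 without treatment and differed less, with 218, 276, 256 and 253 CPM. T cells had the highest level of all classes shown, at 478, 620, 399 and 362 CPM, and neutrophils had 84.5, 124, 71.5 and 70.8 CPM.

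**Figure D4:**
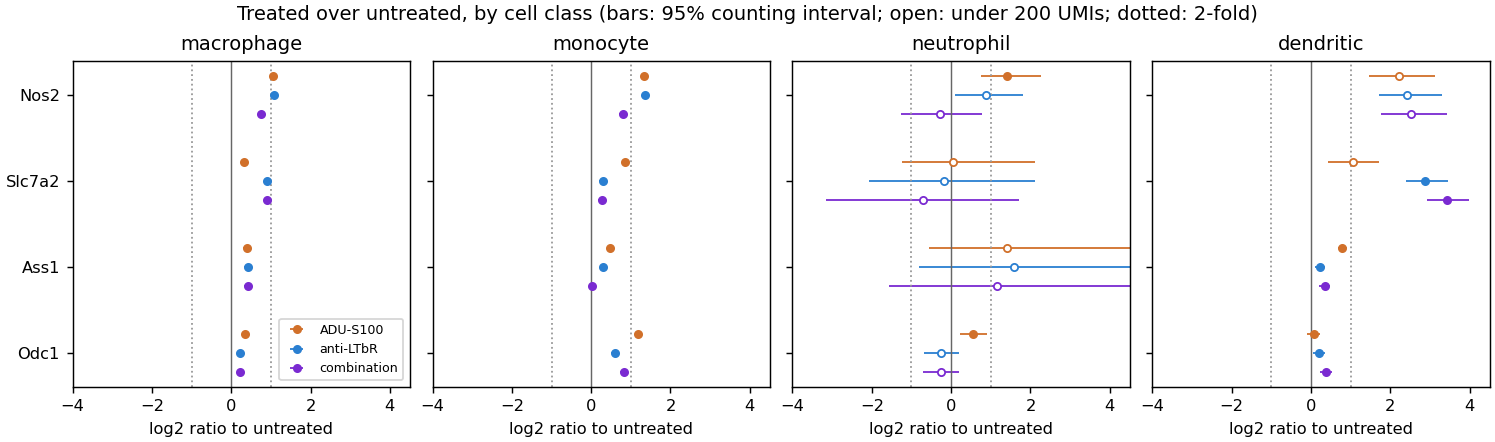
Log2 ratio of each treated library to the untreated library (horizontal axis) for the 4 genes in each cell class, with 95% counting intervals, open symbols for genes under 200 UMIs and dotted lines at 2-fold. All ratios in macrophages and monocytes lay above 0, with an interval that held 0 for Ass1 in monocytes with the combination, and the intervals of Ass1 in neutrophils run past the axis.

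Counted over the 4 genes, macrophages had 1 past 2-fold with ADU-S100 and 1 with anti-LTβR (Nos2 in both) and 0 with the combination. Among all genes of that class with at least 200 UMIs, 2.43, 1.1 and 1.6% were past 2-fold in these comparisons. Monocytes had 2 with ADU-S100 (Nos2 and Odc1), 1 with anti-LTβR (Nos2) and 0 with the combination, where 4.11, 0.898 and 0.92% of all genes were. With ADU-S100 the monocyte count was 3 with finer clusters, after thinning to 1000 UMIs and with scaling by the median ratio, where Slc7a2 was past 2-fold as well. With ADU-S100, anti-LTβR and the combination, the median log2 ratio of the 4 genes was 0.37, 0.66 and 0.58 in macrophages and 1.03, 0.45 and 0.53 in monocytes. The median over all genes was -0.13, -0.00059 and -0.08 in macrophages and -0.20, -0.04 and -0.06 in monocytes.

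Between treated libraries the counts were small. The combination against ADU-S100 had 0 of 4 past 2-fold in macrophages and in monocytes, where 2.57% of all genes were in each class, and against anti-LTβR also 0 in both, with 0.753 and 0.259% of all genes. Summed over monocytes, all 4 genes were lower in the combination than with ADU-S100, between -0.36 and -0.60 on the log2 scale. For Slc7a2 the monocyte clusters went both ways. It was lower in the combination in cluster 7 (340 against 801 CPM) and cluster 5 (24.6 against 33.0 CPM). It was higher in cluster 2 (253 against 220 CPM) and cluster 4 (104 against 80.8 CPM). In macrophages Slc7a2 was higher in the combination than with ADU-S100, at 0.58 (0.54 to 0.63), while Nos2 and Odc1 were lower. The comparisons with untreated share that library, and those with the combination share the combination library, so they are not independent of each other.

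Neutrophils passed the minimum of 200 UMIs for 2 of the 4 genes with ADU-S100, Nos2 and Odc1, and for 0 with anti-LTβR and with the combination. One gene was past 2-fold, Nos2 with ADU-S100, against 6.34% of all genes, and 0 were with anti-LTβR or the combination, against 2.72 and 1.38%. Nos2 in neutrophils was 18.3, 50.2, 34.5 and 15.3 CPM, from 16, 586, 57 and 22 UMIs, which for ADU-S100 gave a log2 ratio of 1.42 (0.75 to 2.28). Nos2 reached the minimum through the ADU-S100 library alone, where it was high, so its calls in neutrophils follow in part from that filter. Cluster 3 (S100a9, Asprv1, Il36g) held 81.2% of these UMIs in the ADU-S100 library and was 35.75% of untreated and 60.8% of ADU-S100 neutrophils. Inside it the log2 ratio for ADU-S100 was 0.47, with an interval that held 0 (-0.25 to 1.40). In the other neutrophil cluster, 6, it was 2.55 (0.98 to 5.93), from 25.8 against 3.54 CPM, the latter 2 UMIs. Nos2 was also the 1 of 2 genes past 2-fold between the combination and ADU-S100, at a log2 ratio of -1.69, against 4.02% of all genes, and 0 of 1 was past it against anti-LTβR, with 1.01% of all genes. When each cell was named on its own by markers, without clusters, these Nos2 values were 0.16 and 0.40 and neither was past 2-fold.

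Slc7a2 in neutrophils, at 0.905, 1.27, 0.764 and 0.325 UMIs per 100 cells, was no higher than in T cells beyond counting error, where it was 2.37, 0.912, 1.03 and 0.534 per 100. The Slc7a2 values in neutrophils were therefore not read as expression. Nos2 with ADU-S100 was 12.2 UMIs per 100 neutrophils, against 2.01 per 100 T cells but 26.7 per 100 B cells, the last from 20 UMIs in 75 cells. The part of free RNA in these values was not tested. Neutrophil depth was low, and thinning to 1000 UMIs left out 562 of 1232 neutrophils in the combination library.

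Dendritic cells were fewer (650, 502, 829 and 791) and held little of Nos2 and Slc7a2. Nos2 did not reach 200 UMIs in any dendritic comparison, with 17, 63, 99 and 64 UMIs. Slc7a2 was 6.83, 14.3, 50.9 and 73.8 CPM, a log2 ratio of 2.88 (2.39 to 3.45) for the antibody alone. The combined treatment gave 3.42 (2.92 to 3.99). Cluster 34, of 69 cells with 56 from the anti-LTβR library, held 58.8% of the Slc7a2 and 42.4% of the Nos2 UMIs of that library's dendritic class. It was named plasmacytoid on 3 markers but had 52.1 CPM of Siglech, against 2608 CPM in cluster 31, so its name is doubtful. Without it the log2 ratios of Slc7a2 were 2.14 and 3.19. They were 1.13 and 1.67 with all deposited cells of at least 300 genes, 1.18 and 1.91 with finer clusters, and 0.89 and 1.46 without clusters. With the level in T cells taken off they were 5.14 and 5.72, but the untreated dendritic level of 6.83 CPM (4.75 to 9.49) overlapped that of T cells, 5.57 CPM (3.73 to 7.99), so the size of these ratios is poorly known. Summed macrophage markers in the class were 335, 326, 418 and 863 CPM, and their part in the Slc7a2 difference was not tested. Summed neutrophil markers in the class were 13.5, 643, 130 and 48.9 CPM, highest in the ADU-S100 library, where Ass1 of the class was also highest, and their part in that was not tested.

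By subset, Ass1 was 231, 405, 253 and 253 CPM in cDC2 and 266, 359, 299 and 370 CPM in mature dendritic cells, and 91.3, 195, 78.5 and 97.6 CPM in cDC1. Odc1 was highest in cDC1, at 278, 289, 227 and 294 CPM, followed by cDC2 at 122, 162, 172 and 192 CPM. It was 40.4, 68.3, 113 and 76.9 CPM in mature dendritic cells and 40.9, 51.7, 159.8 and 78.5 CPM in plasmacytoid dendritic cells. The anti-LTβR value of the last includes the 56 cells of the doubtful cluster 34, with 246 CPM, and was 70.7 CPM in cluster 31 alone. The combination value of the last rests on 9 UMIs in 38 cells, including 10 cells of cluster 34. In that library cluster 34 held 1.13% of the Odc1 UMIs of the dendritic class and cluster 31 held 0.323%. Slc7a2 in mature dendritic cells was 8.08, 14.7, 37.7 and 85.1 CPM, from 9, 14, 44 and 52 UMIs. These subsets held between 38 and 477 cells per library.

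In the dendritic class, 0 of 2 genes that passed the minimum were past 2-fold with ADU-S100, 1 of 3 with anti-LTβR and 1 of 3 with the combination (Slc7a2 in both), against 1.74, 1.51 and 1.98% of all genes. The combination had 1 of 3 past 2-fold against ADU-S100 (Slc7a2, log2 ratio 2.36) and 0 of 3 against anti-LTβR, where 2.07 and 0.548% of all genes were. The ratio of 2.36 was 0.60 with all deposited cells of at least 300 genes and 0.77 without clusters, both under 2-fold. Genes with few UMIs pass the minimum only through the libraries where they are high, so these counts cover the genes measurable in the class and not all 4.

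The second question was whether single cells carried the transporter Slc7a2 and Nos2 together. After thinning to 1000 UMIs, 3.39, 5.88, 6.39 and 5.82% of macrophages had both, where independent detection would give 1.41, 3.17, 3.86 and 3.37%. The ratio of observed to expected was 2.40 (95% interval 1.91 to 2.99), 1.86 (1.57 to 2.18), 1.65 (1.42 to 1.91) and 1.73 (1.498 to 1.98). In monocytes 1.24, 3.88, 3.13 and 2.40% had both, at ratios of 2.19, 1.75, 2.07 and 2.73, and the lowest bound was 1.32. All 8 intervals lay above 1. With all UMIs of each cell the macrophage ratios were 1.77, 1.67, 1.61 and 1.64.

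A minority of the cells with Nos2 had a Slc7a2 UMI at this depth. Among macrophages with a Nos2 UMI, 39.2, 34.9, 38.8 and 42.6% had Slc7a2, against 14.1, 15.5, 20.4 and 21.8% of those without. Among monocytes with Nos2 the share was 15.1, 21.5, 18.6 and 21.8%, against 6.17, 10.2, 7.04 and 6.27% of those without. In each library and class the share was higher in cells with Nos2.

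The share with Nos2 was higher at more Slc7a2. In the untreated macrophages it was 6.28% at 0 Slc7a2 UMIs, 18.6% at 1 and 25.2% at 2 or more. With ADU-S100 the same steps were 13.5, 27.4 and 39.2%, the highest of the 4 libraries in macrophages with 2 or more. Monocytes had 7.48, 13.9 and 26.5% untreated and 15.1, 33.5 and 37.2% with anti-LTβR. In macrophages the intervals of the last 2 steps overlap in the untreated and ADU-S100 libraries. The last step in monocytes rests on 34, 193, 137 and 98 cells, and its intervals overlap those of the step before in each library.

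**Figure D5:**
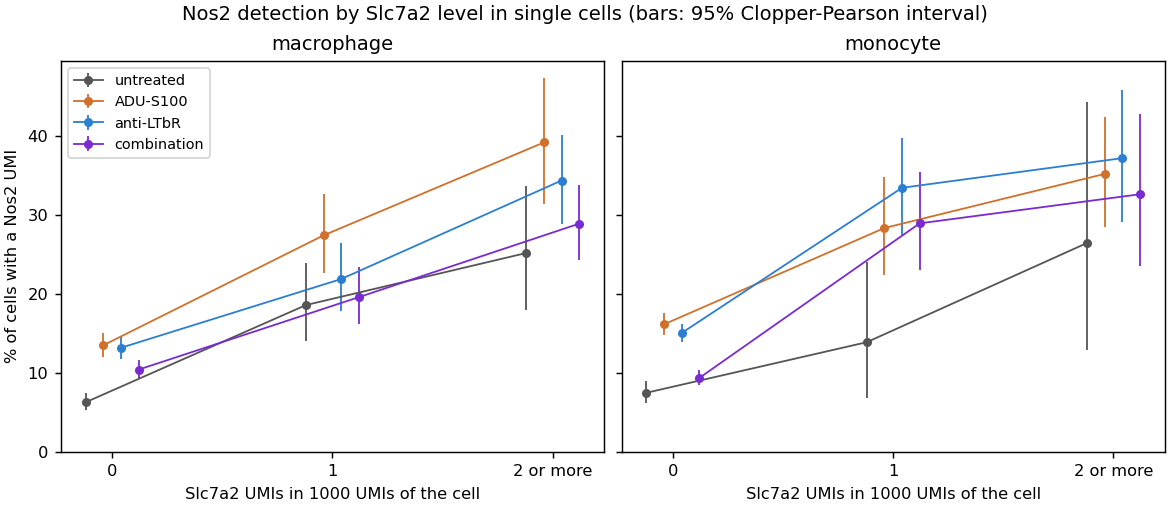
Percent of cells with a Nos2 UMI (vertical axis) by the number of Slc7a2 UMIs in the same cell (horizontal axis), each cell thinned to 1000 UMIs, with 95% Clopper-Pearson intervals. In macrophages with 2 or more Slc7a2 UMIs the share was 25.2, 39.2, 34.4 and 28.9%, against 6.28 to 13.5% in those with 0.

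The ratio was also computed among cells of like total UMIs, in 3 depth ranges. In the middle range it was 2.19, 1.72, 1.77 and 1.71 in macrophages and 2.75, 1.69, 2.21 and 2.63 in monocytes. The intervals reached 1 only in monocytes, in the lowest and highest range of the untreated library and in the highest range of the anti-LTβR and combination libraries. Within single clusters the ratio varied. It was 1.27, 1.15, 0.99 and 1.11 in cluster 9, where every interval held 1, and 1.02, 1.31, 1.24 and 1.32 in cluster 2. In cluster 7, where Nos2 was also high, it was 1.92, 1.53, 1.92 and 2.76, with 3 of 4 intervals above 1. In cluster 1, with a lower Nos2 level, it was 2.61, 2.49, 1.52 and 1.94, and every interval lay above 1. Of cluster 9 cells, 11.3, 11.53, 16.75 and 16.5% had both genes.

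Other pairs were also detected together. The ratio for Nos2 with Ass1 was 2.61, 1.44, 1.68 and 1.68 in macrophages, with 4 of 4 intervals above 1, and 3 of 4 were above 1 in monocytes. For Slc7a2 with Ass1 it was between 1.26 and 1.62 in macrophages, with 4 of 4 intervals above 1, and between 0.93 and 1.49 in monocytes, with 1 of 4. For Slc7a2 with Odc1 it was between 1.33 and 1.89 in monocytes, with 4 of 4 intervals above 1, and between 1.03 and 1.30 in macrophages, with 2 of 4. Nos2 with Odc1 was between 0.87 and 1.21 in macrophages and between 0.91 and 0.97 in monocytes, and no interval left out 1. In neutrophils and dendritic cells Nos2 and Slc7a2 were detected together in at most 7 thinned cells per library. These 7 were dendritic cells of the anti-LTβR library, with a ratio of 11.65 (4.69 to 24.0), and 6 of them lay in the doubtful cluster 34, inside which the ratio was 1.70 (0.62 to 3.69).

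Set against each other, Slc7a2 UMIs outnumbered Nos2 UMIs in macrophages of 3 libraries and were fewer in monocytes of all 4. There were 1.71, 1.03, 1.504 and 1.92 Slc7a2 UMIs for each of Nos2 in macrophages, lowest with ADU-S100, where the interval held 1 (0.996 to 1.07), and highest in the combination. In monocytes there were 0.859, 0.620, 0.409 and 0.596, lower in each treated library than in the untreated one, whose interval began at 0.797. With finer clusters the monocyte log2 ratio of ADU-S100 to untreated was 1.96 for Slc7a2 and 1.67 for Nos2. The order of ADU-S100 and untreated was then the opposite.

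Across 68 sums of cells by cluster and library with at least 50 cells, the genes with the pattern most like Nos2 were Furin (Pearson's r = 0.90), Pdpn, F7, Impa2 and Vegfa (r = 0.85), of 9904 genes compared. Slc7a2 stood at rank 11 (r = 0.81), Odc1 at rank 339 (r = 0.57) and Ass1 at rank 2535 (r = 0.19). The sums share libraries and clusters, so these values describe likeness and carry no test.

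The other genes of the pathway were counted in the same way. Of 61 further listed genes of arginine, ornithine, polyamine, creatine and nitric oxide metabolism and of regulators of these genes, 42 to 45 passed the minimum in macrophages and monocytes. With ADU-S100, anti-LTβR and the combination against untreated, 0, 0 and 1 of them were past 2-fold in macrophages, where 2.43, 1.1 and 1.6% of all genes were, and 2, 1 and 1 in monocytes, where 4.11, 0.898 and 0.92% were. All of these were lower than untreated. Ckb, the brain-type creatine kinase, was lower with the combination in macrophages (57.0 against 136 CPM, log2 ratio -1.25), and in monocytes with each treatment (64.3 CPM untreated against 28.9, 30.3 and 28.6 CPM). Pparg, a nuclear receptor of macrophages, was lower in monocytes with ADU-S100 (6.95 against 16.9 CPM, log2 ratio -1.28). The median log2 ratio of the listed genes was between -0.17 and 0.07 in both classes, beside -0.20 to -0.00059 over all genes.

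In dendritic cells Smox, the spermine oxidase that breaks down a polyamine, was 52.5, 121, 110.5 and 117 CPM, past 2-fold with each treatment at log2 ratios of 1.21, 1.07 and 1.15. It was the only listed gene past 2-fold there, of 29, 32 and 29 that passed the minimum, where 1.74, 1.51 and 1.98% of all genes were. In neutrophils 0 of 23, 19 and 18 were past 2-fold, beside 6.34, 2.72 and 1.38% of all genes. Counts this small do not set the list apart from genes at large.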

How the data were processed

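Leukocyte libraries of 4 groups, 1 per group, were analysed from the deposited filtered matrices of raw UMI counts per gene and cell. Per the labels' processing notes the authors used Cell Ranger 7.1.0 and mm10, whereas the file headers give Cell Ranger 8.0.1, so the version is uncertain. Of the 33696 features, 31961 had an identifier in GENCODE M21, and no coordinates are given. The matrices held 8730, 15404, 14634 and 16322 cells with 62248447, 85855398, 73704334 and 52109958 UMIs in the order untreated, ADU-S100, anti-LTβR and combination. A second experiment of the series was not analysed here.

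Cells with 300 to 5000 genes and at most 6% mitochondrial UMIs were kept. The cells with the highest Scrublet doublet scores, 0.4% per 1000 cells, were removed (305, 949, 857 and 1066), since the automatic threshold marked 0 or 1 cell per library. Each cell was scaled to a total of 10000 and logged, these genes and the listed pathway genes were left out of the 2000 variable genes, and cells were clustered on 30 components with scanpy 1.11.5 and leidenalg 0.10.2 at resolution 1, giving 37 clusters. A cluster was named from marker lists with at least 3 markers at least 2-fold higher and detected in at least 10% of its cells, and stayed unnamed where its top 10 genes held more markers of another class, or where its depth was under 1/3 of its samples' and its top 10 held no marker of its own.

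UMIs were summed per class and library and given as CPM. With 1 library per group no test was made and intervals (95%, scipy 1.17.1) cover counting error only. Genes were called by size, at least 2-fold apart with at least 200 UMIs over both libraries, and the ratio script was tested on simulated data. For shares and co-detection each cell was thinned to 1000 UMIs, and shallower cells were left out. All 4 genes are described in each class. Of the listed pathway genes, those past 2-fold against untreated are named, up to 3 in each direction. The 5 genes most like Nos2 were taken on log2(CPM + 1). The pair Nos2 and Slc7a2 was taken for co-detection after its values were seen. The genes, lists and classes were chosen with earlier results of these data known, and 2 further genes named for this set are not reported here.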

Additional observations from a re-analysis of the deposited data

Results flagged for a closer look

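These results have opposite directions in different cell classes, with counting intervals that leave out 0 on both sides. The difference between classes was not tested in any of them. For Slc7a2, the log2 ratio of the combination to ADU-S100 was 0.58 in macrophages and 2.36 in dendritic cells but -0.60 in monocytes. With macrophages and monocytes merged it was 0.28, and the dendritic value was 0.60 with all deposited cells of at least 300 genes. The monocyte clusters went both ways. Slc7a2 was lower in the combination than with ADU-S100 in cluster 7 (340 against 801 CPM) and cluster 5 (24.6 against 33.0 CPM). It was higher in cluster 2 (253 against 220 CPM) and cluster 4 (104 against 80.8 CPM). For Odc1, the same ratio was 0.31 in dendritic cells, against -0.13 in macrophages, -0.36 in monocytes and -0.81 in neutrophils. Neutrophil cluster 3, which had 150 CPM of Odc1 against 57.3 CPM in cluster 6, was 60.8% of neutrophils with ADU-S100 and 41.0% with the combination. Inside cluster 3 Odc1 was 72.7 CPM with the combination against 159.8 CPM with ADU-S100, and inside cluster 6 it was 69.4 against 62.6 CPM.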

How the results depend on the processing

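No paired analysis was possible because each group is 1 library in the data used, and the second experiment was not analysed here. The number of the 4 genes past 2-fold changed as follows, and the cause was not tested. In macrophages, ADU-S100 against untreated gave 0 in place of 1 without clusters. Anti-LTβR gave 0 in place of 1 without clusters, and 2 at resolution 2, without the clusters of few ribosomal protein UMIs or at 1.5-fold. The combination gave 1 in place of 0 with all deposited cells of at least 300 genes, and 2 at resolution 2 or at 1.5-fold.

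In monocytes, ADU-S100 gave 1 in place of 2 with macrophages and monocytes merged, and 3 at resolution 2, after thinning, with scaling by the median ratio or at 1.5-fold. Anti-LTβR gave 2 in place of 1 at 1.5-fold. The combination gave 1 in place of 0 without clusters and 2 at resolution 2 or at 1.5-fold, and against ADU-S100 1 at 1.5-fold. In neutrophils, ADU-S100 gave 0 in place of 1 without clusters and 2 with a minimum of 50 UMIs. The combination against ADU-S100 gave 0 in place of 1 without clusters and 2 after thinning or at 1.5-fold, and against anti-LTβR 1 in place of 0 with the minimum of 50. The neutrophil Nos2 log2 ratio of the combination to ADU-S100 reversed to 0.40 without clusters.

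In dendritic cells, ADU-S100 gave 1 in place of 0 at 1.5-fold and 2 with the minimum of 50. Anti-LTβR gave 0 in place of 1 without clusters, and it and the combination each gave 2 in place of 1 with the minimum of 50. Against ADU-S100 the combination gave 0 in place of 1 without clusters or with all deposited cells, and against anti-LTβR 1 in place of 0 without cluster 34. Keeping doublets and taking off the T cell level left all of these counts as they were, and scaling by the median ratio left all but the monocyte count for ADU-S100.

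The ratio of observed to expected Nos2 and Slc7a2 co-detection moved in macrophages to 1.77 untreated with all UMIs of each cell, and to 2.41 with ADU-S100 and 2.05 with anti-LTβR when thinned to 500 UMIs. In the combination it moved to 2.06 in macrophages and 2.01 in monocytes without clusters, and to 2.07 with both classes merged. The settings without the clusters of few ribosomal protein UMIs or without cluster 34, and all settings for co-detection, were chosen after seeing the data. Ass1 and Slc7a2 in neutrophils had at most 61 UMIs in a library, too few for a ratio with a narrow interval.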

Other observations

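Myeloid RNA also lay in clusters that no marker list named. Cluster 24, of 498 cells led by Retnla, Lyz1 and Ear2, had 155 CPM of Slc7a2 and 149 CPM of Odc1 and held 45, 13, 216 and 224 cells in the order untreated, ADU-S100, anti-LTβR and combination. Cluster 33, of 101 cells with cell cycle genes among its leading genes, had 829 CPM of Slc7a2 and 240 CPM of Nos2, with 0.773% ribosomal protein UMIs.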
